A study of Homo sapiens with 3 samples.

Results

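Cyclins, the cyclin-dependent kinases (CDKs) that they activate and the proteins that switch these kinases on and off were followed across 3 expression arrays of a lung cancer cell line. The 51 genes were taken by symbol, each probe being named through its RefSeq accession, and 50 of them had a probe on the array, with 68 probes in all, among the 22439 RefSeq symbols found there. *CCNA1*, a cyclin used mainly in germ cells, had no matched probe.

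The cells were A549, an established line from a human lung adenocarcinoma, and all were treated with the transfection reagent Lipofectamine RNAiMAX. The mock array held RNA from cells given the reagent with no miRNA precursor, and the other arrays held RNA from cells given a precursor of *miR-139-5p* (the 5p strand) or of *miR-139-3p* (the 3p strand) at 10 nM, the dose in the methods of the study. The question was which transcripts differ from mock after each strand of *miR-139* is raised. With 1 array in each group, nothing below was tested or repeated, and precision is limited by that number. Slide 1 carried mock and *miR-139-5p* and slide 2 carried *miR-139-3p*, so that slide and transfection cannot be told apart for *miR-139-3p*. Signals stood well above background for 49.9% of 60901 spots for mock, 48.1% for *miR-139-5p* and 53.1% for the 3p strand, and saturation touched 0 spots.

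The label was checked against marker genes. All 5 epithelial markers (*CDH1*, *EPCAM*, *KRT8*, *KRT18* and *KRT19*) were well above background on each array, as were *AKR1B10*, *AKR1C1*, *ALDH1A1* and *NQO1*, enzymes driven by NRF2 that are known to be abundant in A549. *AKR1C2*, listed with them, had no matched probe. In signal divided by the 75th percentile of the array, the epithelial markers, each by its brightest probe, summed to 1086 in mock, 709.8 on the 5p array and 746.7 on the 3p array, and *KRT18*, as the geometric mean of its probes, was at 446, 261 and 248. The markers did not move together: *KRT8* and *KRT18* were lower with the 3p strand, at -0.74 and -0.84 on the log2 scale, while *KRT19*, *CDH1* and *EPCAM* were at 0.18, 0.36 and 0.97, and with the 5p strand they ran from -0.85 for *KRT8* to 0.17 for *EPCAM*. By the same measure the enzymes summed to 1239, 1285 and 827.1, and *AKR1B10* was at 548, 678 and 203. With the 3p strand *AKR1B10* and *AKR1C1* were lower, at -1.44 and -0.72, and *ALDH1A1* and *NQO1* were level, at -0.06 and 0.07, while with the 5p strand *AKR1B10* was at 0.31 and the other 3 enzymes ran from -0.31 to -0.22. These sums follow a list across the arrays and do not compare amounts of RNA between genes, as probes differ. Of 8 markers of blood, endothelium, fibroblasts and liver, *COL1A1* and *PTPRC* were well above background on all 3 arrays, *VWF* in mock and with the 3p strand and *CD3E* with the 3p strand alone, while *PECAM1*, *COL3A1* and *ALB* were on none. The signals of these 8 markers summed to 0.704, 1.42 and 0.818 on the mock, 5p and 3p arrays, and *COL1A1* was at 0.428, 1.14 and 0.280. *PTPRC* was at 0.0857, 0.106 and 0.205 and *VWF* at 0.0671, 0.0569 and 0.139, so these dim markers are highest on the 3p array, where *COL1A1* is lowest. What these differences do to the values below was not tested. *CDKN2A* and *MTAP* are known to be deleted in A549, yet 1 probe of each gave a signal, which is taken up with the CDK inhibitors.

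A cyclin binds a CDK and gives it activity and choice of substrate. D-type cyclins with *CDK4* and *CDK6* start the release of E2F factors from the Rb protein in G1, E-type and A-type cyclins with *CDK2* drive the entry into and passage through S phase, and A-type and B-type cyclins with *CDK1* drive mitosis, so that several of these transcripts rise and fall with the cycle and stand high in dividing tumour cells. Another branch of the family works at RNA polymerase II: *CDK7* with cyclin H, *CDK8* and *CDK19* with cyclin C, *CDK9* with the T cyclins, and *CDK12* and *CDK13* with cyclin K act on the polymerase, the Mediator complex or elongation factors and are not tied to a phase of the cycle.

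Besides slide, the treated arrays differ in the miRNA given, so the mature miRNAs are shown. Both come from the hairpin of *MIR139*, which lies inside an intron of *PDE2A* on the minus strand of chromosome 11 (RefSeq, GRCh38.p14), *miR-139-5p* at chr11:72615102-72615124 and *miR-139-3p* at chr11:72615066-72615088. Capitals mark the seed, bases 2 to 8 from the 5′ end, and the seeds of the strands differ.
*miR-139-5p*: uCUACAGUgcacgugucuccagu
*miR-139-3p*: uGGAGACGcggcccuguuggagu

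Values are given on these scales. The scaled signal of a gene is the background-subtracted spot signal divided by the 75th percentile of its array, which was 93.6 for mock, 88.9 for the 5p array and 81.0 for the 3p array, and for a gene with several probes it is their geometric mean over the probes well above background on all 3 arrays. A difference is the log2 fold change against mock, and a gene is called lower or higher where it passes 0.5 on that scale. Over 300 probes printed in 10 spots each, the median SD between spots was 0.05 in mock and with the 5p strand and 0.06 with the 3p strand. Over genes with several probes, the median SD between their log2 fold changes was 0.28 for the 3p strand and 0.15 for the 5p strand. These are technical spreads within an array and hold nothing of the spread between cultures. In what follows, signals are listed in the order mock, 5p and 3p, and log2 fold changes in the order 3p and 5p. Signals of different genes come from different probes, so they are not read as relative amounts of RNA.

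With *miR-139-3p*, 9 of 12 cell-cycle cyclins and CDKs with a value were lower than in mock while 12 of 13 transcriptional ones were within the threshold. Of the 51 genes, 46 had a value in this comparison, and 20 of these (43.5%) were lower, against 27.9% of 15572 genes with a value. Of the 46, 3 (*CDK6*, *CDK18* and *CDKN1C*, 6.52%) were higher, against 26.5% of all genes. The median over the members was -0.31, against -0.09 over all genes measured on both arrays. In bulk RNA, a smaller share of cells in a phase of the cycle and less RNA per cell cannot be told apart.

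With *miR-139-5p*, 46 members had a value, of which *CCND3*, *CDK5*, *CDK7* and *CDK19* (8.70%) were lower, against 12.3% of 15016 genes, and *CDK6*, *CDKN1B* and *CDC25A* (6.52%) were higher, against 10.7%. These shares lie near those of all genes, and the median over the members was 0.06, against 0.00. Both comparisons use the same mock array, so their values are given side by side and no relation between them is computed. Set against both other arrays, 17 of 45 members with both values (37.8%) were lower by over 0.5 on the *miR-139-3p* array, against 21.2% of 15345 genes.

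The scaling bears on how calls over all genes divide. Of all genes past the threshold with *miR-139-3p*, 48.8% were higher, which became 60.9% where the percentile came from probes detected on every array and 34.2% without scaling. For *miR-139-5p* this share was 46.6%, and it became 33.9% with no scaling and 67.8% with scaling to the spike-in probes. These scalings moved the all-gene median for *miR-139-3p* to 0.08 and -0.30, and for *miR-139-5p* to -0.07 and 0.13. The median of the 12 cell-cycle cyclins and CDKs with a value was -1.21 for *miR-139-3p* and lay between -1.41 and -0.76 over the alternatives, below the all-gene median under each of them. For the 13 transcriptional cyclins and CDKs it was 0.04 and lay between -0.17 and 0.21, so its sign is not fixed.

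**Figure D1:**
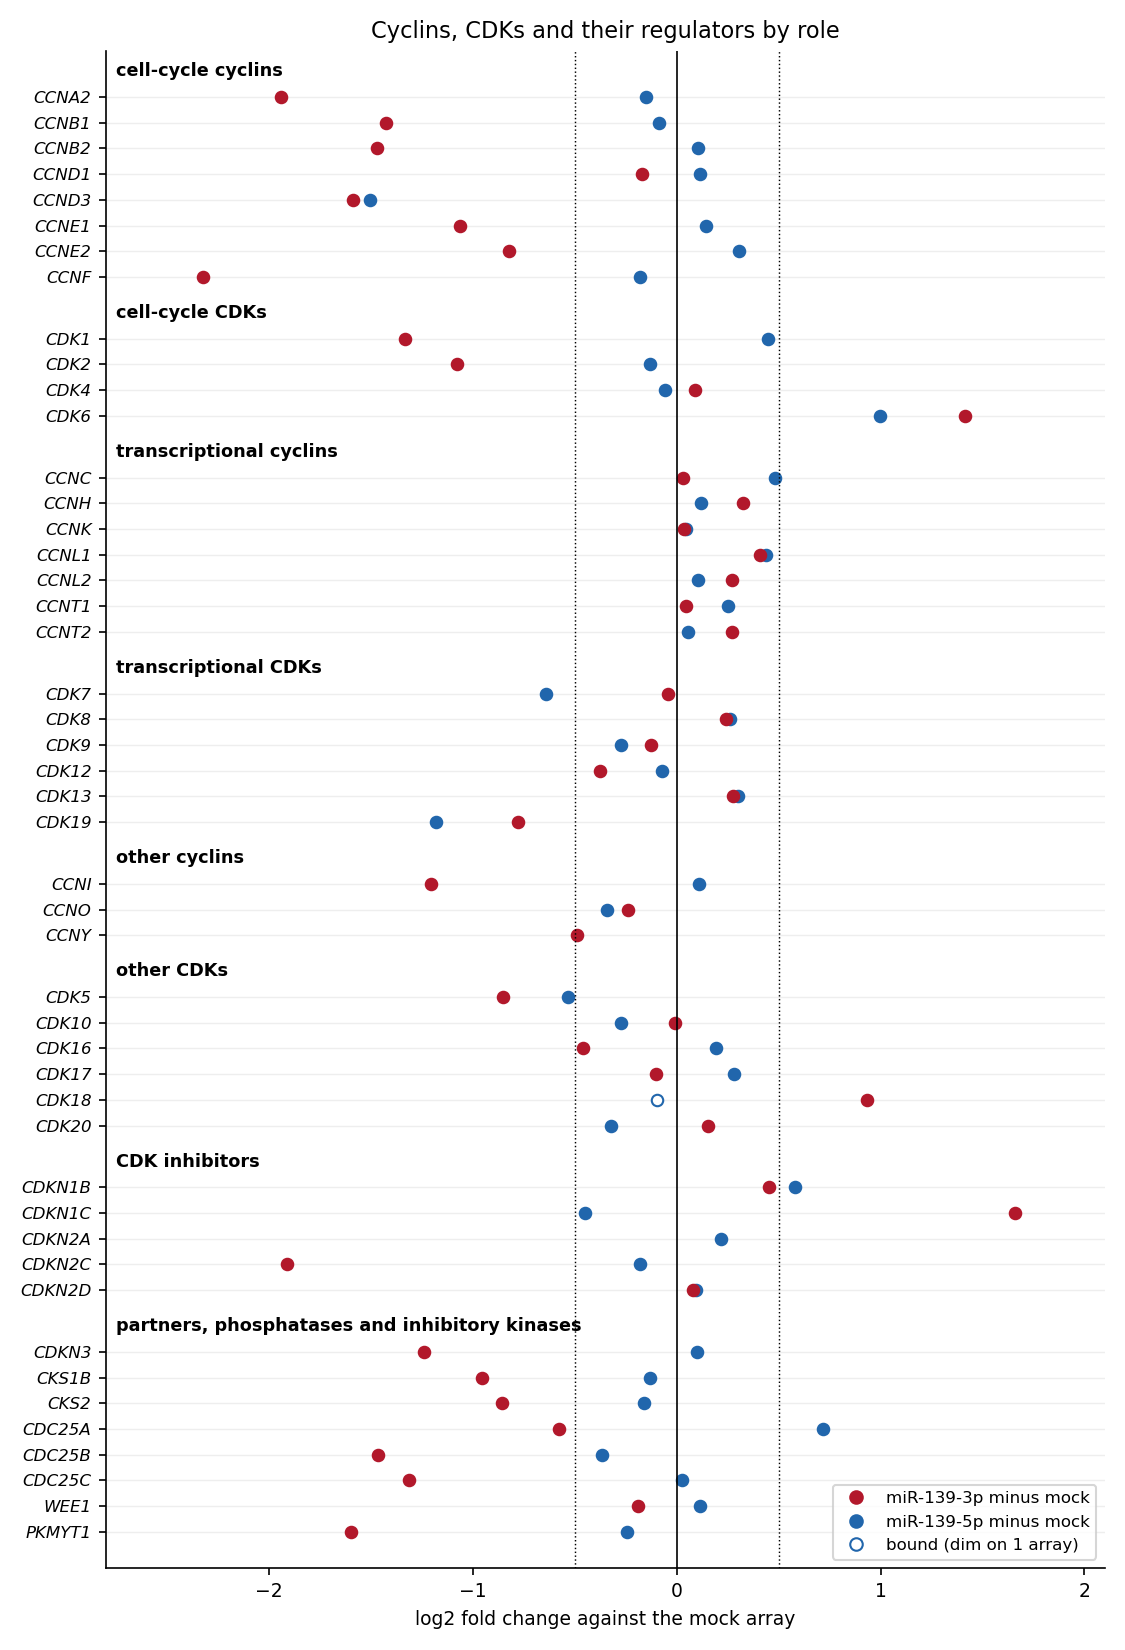
Log2 fold change against mock (x axis) of each member with a value, by role (y axis), for *miR-139-3p* (red) and *miR-139-5p* (blue). Dotted lines mark the threshold of 0.5, the open circle is a bound, and each point rests on 1 array against 1 array. Most red points of the cell-cycle cyclins and of the partners and phosphatases lie left of -0.5, whereas 12 of the 13 transcriptional members lie between the dotted lines.

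Among the 10 cell-cycle cyclins, 8 had a value, and with *miR-139-3p* 7 of them were lower and 0 higher, beside 27.9% and 26.5% of all genes, with a median of -1.45. With *miR-139-5p* 1 was lower and 0 were higher, beside 12.3% and 10.7% of all genes, with a median of 0.01. *CCND2*, a D-type cyclin, was not well above background on any array.

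The A and B cyclins, which serve S phase and mitosis, were lower on the *miR-139-3p* array. *CCNA2*, the A-type cyclin of dividing body cells, had a scaled signal of 4.43 in mock, 4.0 with the 5p strand and 1.15 with *miR-139-3p*. That is a log2 fold change of -1.94 for the 3p strand, with a standard error of 0.04 over the spots of the probe, and -0.15 for the 5p strand. Mock and the 5p array are close and the 3p array is low, at 26.0% of mock. *CCNB1*, the main mitotic cyclin, had signals of 17.2, 16.2 and 6.39 in the same order of arrays. Its log2 fold changes were -1.43 and -0.09, and its 2 probes differed from their mean by little, with an SD of 0.04 for *miR-139-3p*. *CCNB2*, a second mitotic cyclin, had signals of 37.0, 39.8 and 13.3. With log2 fold changes of -1.47 and 0.10, it too was low on the *miR-139-3p* array alone.

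*CCNF*, which does not activate a CDK but brings substrates to the SCF ubiquitin ligase, had signals of 0.425, 0.375 and 0.0847. Its value of -2.33 with *miR-139-3p* was the lowest of all members at the main setting, against -0.18 for the 5p strand. The probe is dim, its signal on the *miR-139-3p* array lying just above 0.0533, the lowest signal well above background there. With the normexp background correction, which also adds an offset of 50 to every signal, the fold change for *miR-139-3p* was -0.49, inside the threshold. The parts of the correction and of the offset in this shift were not separated.

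The E-type cyclins, partners of *CDK2* at the start of S phase, were also lower. *CCNE1* had signals of 15.1, 16.7 and 7.21, and log2 fold changes of -1.06 for the 3p strand and 0.15 for the 5p strand. *CCNE2* had signals of 0.428, 0.563 and 0.242 at the probe measured on all 3 arrays. Its log2 fold change was -0.82 with *miR-139-3p*, against 0.30 over 2 probes for the 5p strand. A second *CCNE2* probe was well above background in mock, at 0.107, and on the 5p array, at 0.125, but not on the 3p array. *CCNE2* is dim as well, and normexp brought its fold change for *miR-139-3p* to -0.20, which ends the call, while without the filter on dim probes it was -1.42.

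The D-type cyclins did not move together. *CCND1*, the cyclin that answers growth factors, had signals of 5.99, 6.48 and 5.32, and its log2 fold changes of -0.17 and 0.11 kept it within the threshold on both treated arrays. *CCND3* had signals of 19.4 in mock, 6.84 with the 5p strand and 6.44 with *miR-139-3p*. It is high in mock and low on both treated arrays, with log2 fold changes of -1.59 and -1.50, and it was the 1 cell-cycle cyclin lower with *miR-139-5p*.

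The 4 cell-cycle CDKs split. *CDK1*, the kinase of mitosis, had signals of 10.9 in mock, 11.9 with the 5p strand and 4.32 with *miR-139-3p* at its probe of 10 spots, and a log2 fold change of -1.33 there, with a standard error of 0.03 over spots. For *miR-139-5p* that probe gave 0.13, while a dim second probe, for another transcript, gave 0.77 and brought the mean to 0.45. *CDK2* had signals of 1.05, 0.960 and 0.499, with log2 fold changes of -1.08 and -0.13, the first of which was -0.54 with normexp. Both kinases are thus low on the *miR-139-3p* array and near mock with *miR-139-5p*, *CDK1* with the doubt that its dim probe brings.

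*CDK4* and *CDK6*, the kinases of D cyclins, were not lower. *CDK4* had signals of 45.6, 43.8 and 48.5 and log2 fold changes of 0.09 and -0.06, which leaves it level across the arrays. *CDK6* had signals of 7.96 in mock, 15.9 with the 5p strand and 21.2 with *miR-139-3p*. It is higher on both treated arrays, by 1.41 with the 3p strand and 1.00 with the 5p strand, and was the 1 member called higher in both comparisons.

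Over the cell-cycle cyclins and CDKs together, 9 of 12 with a value were lower with *miR-139-3p* and 1 was higher, with a median of -1.21 against -0.09 for all genes, of which 27.9% were lower and 26.5% higher. Of the same 12, 8 (*CCNA2*, *CCNB1*, *CCNB2*, *CCNE1*, *CCNE2*, *CCNF*, *CDK1* and *CDK2*) were lower on the *miR-139-3p* array than on both other arrays, against 21.2% of all genes. With *miR-139-5p* 1 of 12 was lower and 1 higher, against 12.3% and 10.7% of all genes, and the median was 0.02 against 0.00.

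**Figure D2:**
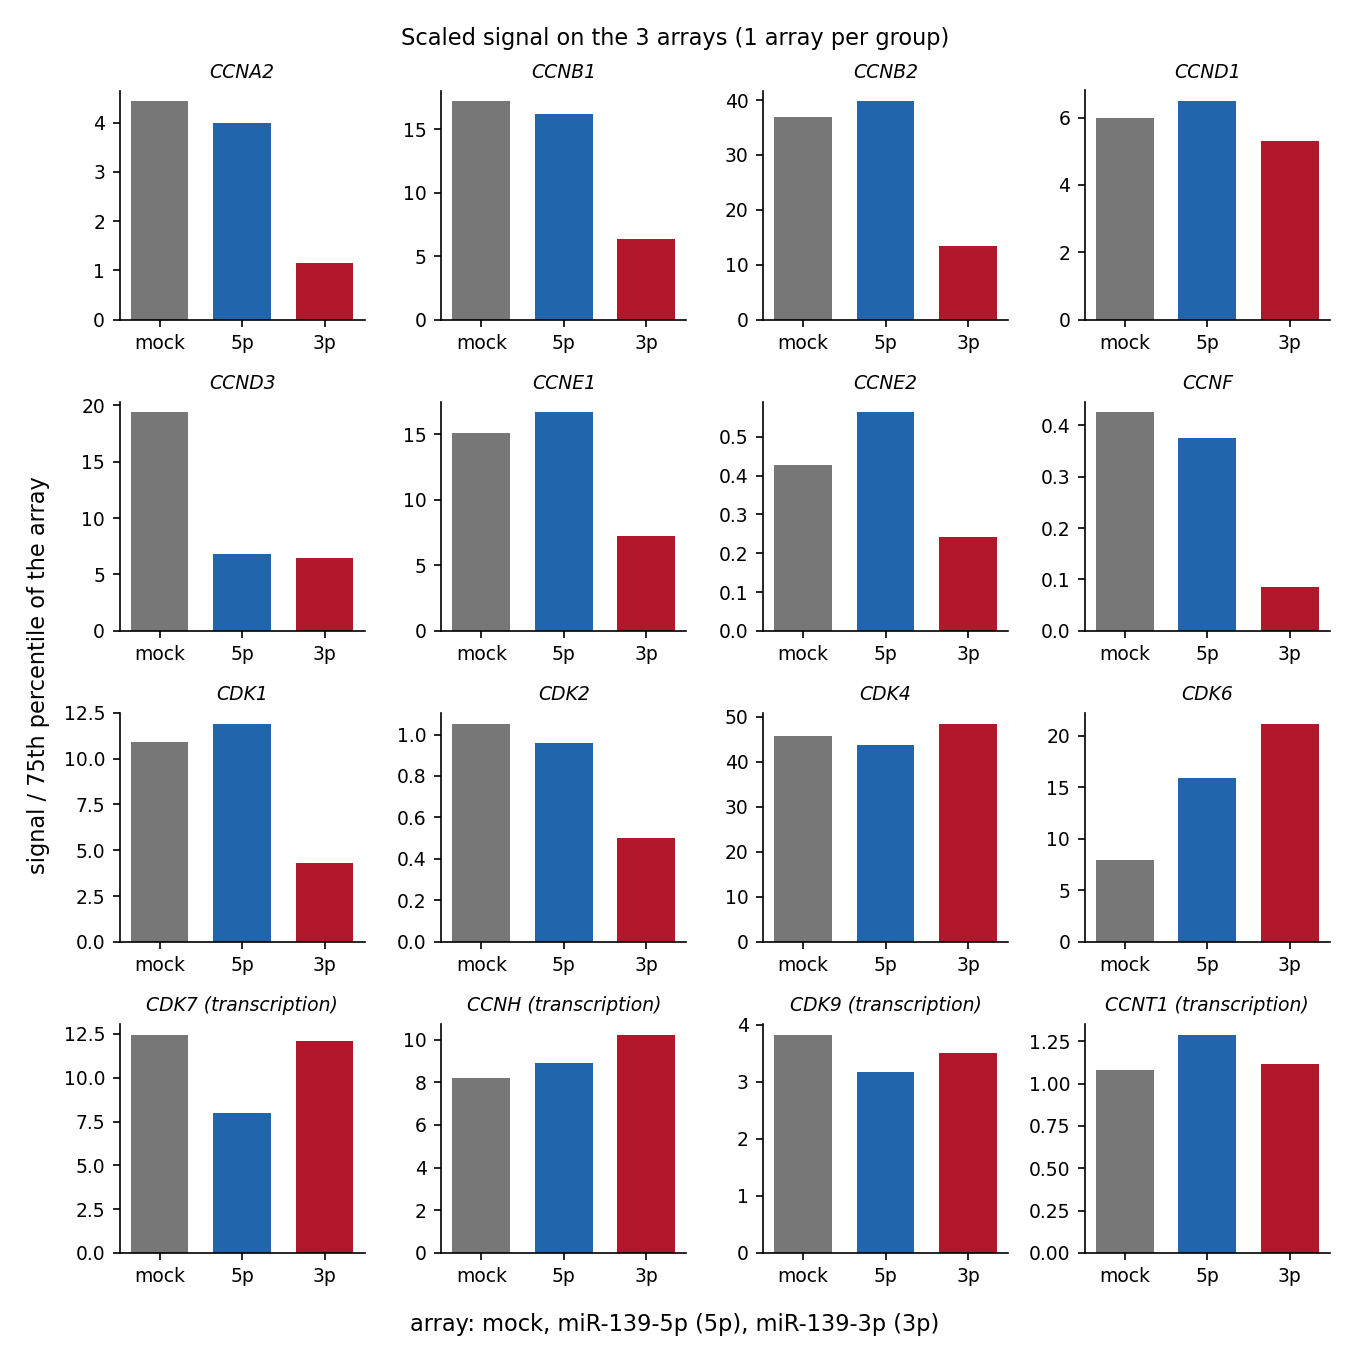
Scaled signal (y axis, signal over the 75th percentile of the array, each panel with its own scale from 0) on the mock, 5p and 3p arrays (x axis, 1 bar per array and no error bar) for the 12 cell-cycle members with a value and for *CDK7*, *CCNH*, *CDK9* and *CCNT1*. The *miR-139-3p* bar is the lowest for *CCNA2*, *CCNB1*, *CCNB2*, *CCNE1*, *CCNE2*, *CCNF*, *CDK1* and *CDK2*, *CCND3* is low on both treated arrays, and *CDK6* is highest with *miR-139-3p*.

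Promoters of A and B cyclins are shown because these genes were low together, beside that of *CCNT1*, a transcriptional cyclin that was not. RefSeq promoters on GRCh38.p14, of 300 bases around the start, were at hand for 44 of the 51 members, the others being *CCND1*, *CCND2*, *CCNE2*, *CDK2*, *CDKN1C*, *WEE1* and *PKMYT1*. The letters searched on both strands were TTTGAA and TTCGAA, forms of the cell cycle homology region that the DREAM complex is known to read, CCAAT, the box of NF-Y, and TTTNNCGC, the outline of an E2F site. Other forms of these sites were not searched, so a promoter with no match, as *CCNA2* and *CCNB1* for the cell cycle homology region, is not shown to lack the site. Matches of different letters can share bases at their ends. Capitals mark every match, ATTGG being CCAAT on the other strand. The windows are chr4:121823834-121824133 (minus strand) for *CCNA2*, chr5:69166900-69167199 (plus) for *CCNB1*, chr15:59104896-59105195 (plus) for *CCNB2* and chr12:48716658-48716957 (minus) for *CCNT1*.
*CCNA2*: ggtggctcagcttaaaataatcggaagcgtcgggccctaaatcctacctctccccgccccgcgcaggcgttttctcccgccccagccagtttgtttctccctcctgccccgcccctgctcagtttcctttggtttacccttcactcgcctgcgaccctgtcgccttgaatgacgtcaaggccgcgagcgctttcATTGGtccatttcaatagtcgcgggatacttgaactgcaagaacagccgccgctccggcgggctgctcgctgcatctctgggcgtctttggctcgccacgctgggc
*CCNB1*: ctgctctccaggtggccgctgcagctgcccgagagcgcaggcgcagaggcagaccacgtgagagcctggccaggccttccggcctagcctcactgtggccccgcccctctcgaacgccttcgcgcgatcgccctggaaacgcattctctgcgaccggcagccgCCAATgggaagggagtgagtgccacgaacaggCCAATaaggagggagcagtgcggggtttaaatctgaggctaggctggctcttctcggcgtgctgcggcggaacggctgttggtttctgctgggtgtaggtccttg
*CCNB2*: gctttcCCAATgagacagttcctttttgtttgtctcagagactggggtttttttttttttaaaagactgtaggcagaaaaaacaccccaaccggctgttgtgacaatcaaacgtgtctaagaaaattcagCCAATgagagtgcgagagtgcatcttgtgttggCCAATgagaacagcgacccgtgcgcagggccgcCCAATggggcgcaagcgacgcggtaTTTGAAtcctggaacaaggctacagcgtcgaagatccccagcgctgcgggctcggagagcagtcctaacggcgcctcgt
*CCNT1*: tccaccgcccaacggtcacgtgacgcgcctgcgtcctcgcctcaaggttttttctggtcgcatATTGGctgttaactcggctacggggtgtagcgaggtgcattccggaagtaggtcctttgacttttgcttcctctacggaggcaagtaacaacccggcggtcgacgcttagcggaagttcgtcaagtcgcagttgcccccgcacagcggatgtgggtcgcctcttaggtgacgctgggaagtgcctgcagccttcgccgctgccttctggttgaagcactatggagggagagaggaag

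Counted from the start, the CCAAT match of *CCNA2* begins at base -56, those of *CCNB1* at -87 and -55, and those of *CCNB2* at -244, -120, -87 and -54. *CCNB2* also has TTTGAA at -29. In *CCNT1* the CCAAT match begins at -187. Other members of its branch had CCAAT nearer the start, as *CCNL2* at -66, and the match of *CDK1* begins at -150, so the position does not divide the branches. Over the promoters at hand, CCAAT was in 5 of 10 cell-cycle cyclins and CDKs, in 6 of 13 transcriptional ones and in 35.7% of all 27305 promoters. TTTGAA was in 3 of 10 (*CDK1*, *CCNB2* and *CCNF*), in 2 of 13 (*CCNC* and *CDK19*) and in 15.4% of all. TTCGAA was in 1 of 10 (*CCNF*), in 0 of 13 and in 1.45% of all, and TTTNNCGC in 2 of 10 (*CDK1* and *CCNF*), in 1 of 13 (*CDK19*) and in 6.90% of all. A match is a run of letters and no sign of binding, and CCAAT was about as frequent in both branches of the family.

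All 13 transcriptional cyclins and CDKs were measured on the 3 arrays. With *miR-139-3p* 1 was lower (7.69%, against 27.9% of all genes) and 0 were higher (against 26.5%), and the median was 0.04 against -0.09 for all genes. For the 5p strand 2 were lower (15.4%, near the 12.3% of all genes) and 0 higher (against 10.7%), and the median was 0.11 against 0.00. On the *miR-139-3p* array 0 of the 13 lay below both other arrays by over 0.5, against 8 of the 12 cell-cycle members and 21.2% of all genes.

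*CDK7* and *CCNH* form, with *MNAT1*, the kinase that phosphorylates RNA polymerase II at the start of transcription and that also activates cell-cycle CDKs. *CDK7* had signals of 12.5 in mock, 7.99 with the 5p strand and 12.08 with *miR-139-3p*. It is low on the 5p array alone, with log2 fold changes of -0.05 and -0.64. *CCNH* had signals of 8.18, 8.89 and 10.2 and log2 fold changes of 0.32 and 0.12, which passed 0.5 for *miR-139-3p* with quantile normalization, at 0.53, but not at the main setting. The kinase and its cyclin thus did not follow each other on the *miR-139-5p* array.

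*CDK9* and the T cyclins form P-TEFb, which releases paused polymerase. *CDK9* had signals of 3.83, 3.17 and 3.51, with log2 fold changes of -0.12 and -0.27, and 6 of its 10 spots on the *miR-139-3p* array were used, the others having been marked as outliers. *CCNT1* had signals of 1.08, 1.29 and 1.12, with log2 fold changes of 0.04 and 0.25. The 3 arrays are close for both genes, and *CCNT2* was within the threshold too, at 0.27 and 0.06.

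*CDK8* and *CDK19* are alternative kinases of the Mediator module, with *CCNC* as their cyclin. *CDK19* had signals of 5.09 in mock, 2.24 with the 5p strand and 2.96 with *miR-139-3p*. It is low on both treated arrays, with log2 fold changes of -0.78 and -1.18, and was the 1 transcriptional member lower with *miR-139-3p*. *CDK8* was at 0.24 and 0.26 and *CCNC* at 0.03 and 0.48, within the threshold.

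*CDK12* and *CDK13*, which bind *CCNK* and support elongation over long genes, and the L cyclins, which are linked to splicing, were within the threshold as genes at the main setting. Log2 fold changes with *miR-139-3p* were -0.38 for *CDK12*, 0.28 for *CDK13*, 0.04 for *CCNK*, 0.41 for *CCNL1* and 0.27 for *CCNL2*, and for the 5p strand they ran from -0.07 for *CDK12* to 0.44 for *CCNL1*. *CDK12* passed the threshold as lower with quantile normalization, with no scaling and in the deposited values, at -0.58 in the lowest of these. The 3 *CCNL2* probes disagreed for *miR-139-3p*, at -0.09, -0.09 and 0.99, with an SD of 0.62, so the value of this gene depends on the probe. *CDK13* probes differed less, with an SD of 0.35.

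The 10 other cyclins and CDKs have roles outside both branches, and 9 of them had a value with *miR-139-3p*. *CCNI*, a cyclin of the nervous system and other resting tissues, had signals of 38.7 in mock, 41.7 with the 5p strand and 16.8 with *miR-139-3p*. With log2 fold changes of -1.21 and 0.11, it was the 1 gene of 8 with both values (12.5%, against 21.2% of all genes) below both other arrays on the *miR-139-3p* array. *CDK5*, best known from neurons, was lower on both treated arrays, at -0.85 and -0.53, a second value close to the threshold, whose call ended with spike-in scaling. *CDK18* was higher with *miR-139-3p*, at 0.94, but its signals were only 0.0619 and 0.118 against the lowest well above background of 0.0515 in mock and 0.0533 with *miR-139-3p*, and other settings brought the value as low as 0.22. With the 5p strand it was not well above background, its log2 fold change being a bound of -0.10.

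The other genes of these 10 were within the threshold. *CCNO*, needed for ciliated cells, was at -0.24 and -0.34, and *CCNY*, a cyclin held at the membrane, was at -0.49 with *miR-139-3p*. Its spot on the *miR-139-5p* array had been marked as an outlier. *CDK10*, *CDK16*, *CDK17* and *CDK20* ran from -0.46 for *CDK16* to 0.15 for *CDK20* with the 3p strand and from -0.32 for *CDK20* to 0.28 for *CDK17* with the 5p strand. *CDK14* was not well above background on any array.

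CDK inhibitors of the Cip/Kip group bind cyclin-CDK complexes, and those of the INK4 group bind *CDK4* and *CDK6*. *CDKN1C* (p57) had signals of 1.31 in mock, 0.959 with the 5p strand and 4.14 with *miR-139-3p*. It is high on the *miR-139-3p* array alone, with log2 fold changes of 1.66 and -0.45. *CDKN2C* (p18), an INK4 inhibitor, had signals of 4.89, 4.32 and 1.30 and log2 fold changes of -1.91 and -0.18. It is low on the *miR-139-3p* array alone, and these 2 genes were the highest and the lowest of the inhibitors at the main setting.

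*CDKN1B* (p27) was somewhat higher on both treated arrays, at 0.45 for the 3p strand and 0.58 for the 5p strand. The second passed the threshold, though not with normexp, and spike-in scaling put the first past it as well. *CDKN2D* (p19) was level, at 0.08 and 0.10. *CDKN2B* was not well above background on any array. *CDKN2A*, which encodes p16 and ARF and is known to be deleted in A549, gave unequal probes: that for 1 transcript was not well above background on any array, while that for another had signals of 3.28 in mock and 3.81 with *miR-139-5p*, a log2 fold change of 0.22, and its spot on the *miR-139-3p* array was marked as an outlier. *MTAP*, which lies beside it and is also known to be deleted, had 1 of 3 probes above background, at 3.08, 3.46 and 4.63. What these probes bind was not tested.

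*CDKN1A* (p21), *CCNG1* and *CCNG2* belong to the family by name but not to the 51 genes, and are known targets of p53 or FOXO factors. *CDKN1A* had signals of 0.557 in mock, 0.284 with the 5p strand and 1.71 with *miR-139-3p*, and log2 fold changes of 1.62 and -0.97. *CCNG1* had signals of 1.83, 2.25 and 3.86 and log2 fold changes of 1.08 and 0.30. *CCNG2* had signals of 0.111, 0.0753 and 0.168 and log2 fold changes of 0.59 and -0.56. All are highest on the *miR-139-3p* array. The *CCNG2* probes are dim, near the lowest signal well above background of 0.0576 on the 5p array.

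Proteins that assist CDKs or set their phosphorylation form the last group, of which all 8 genes had a value. On the 3p array 7 (87.5%) were lower and 0 higher, with a median of -1.10, where 27.9% and 26.5% of all genes were lower and higher. The same 7 lay below both other arrays, as did 21.2% of all genes. For the 5p strand 0 were lower and 1 was higher, against 12.3% and 10.7%, with a median of -0.05.

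CDC25 phosphatases remove the inhibitory phosphates of CDKs. *CDC25B* had signals of 37.6 in mock, 29.1 with the 5p strand and 13.6 with *miR-139-3p*, with log2 fold changes of -1.47 and -0.37. *CDC25C* had signals of 1.76, 1.79 and 0.707, with log2 fold changes of -1.31 and 0.03. Both phosphatases, which act at the entry into mitosis, are lowest with *miR-139-3p*. *CDC25A*, which acts from G1 on, had signals of 1.75, 2.89 and 1.17. It is higher than mock with *miR-139-5p*, by 0.72, and lower with *miR-139-3p*, at -0.58, a call that normexp or the percentile over detected probes ended, the smaller of these values being -0.41.

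*PKMYT1* and *WEE1* place the inhibitory phosphates that CDC25 proteins remove. *PKMYT1* had signals of 34.8, 29.4 and 11.5 and log2 fold changes of -1.60 and -0.24, low with *miR-139-3p* alone. *WEE1* was at -0.19 and 0.11, within the threshold on both, and was the 1 gene of the group not called with *miR-139-3p*. *CDKN3*, a phosphatase that takes the activating phosphate off *CDK2* and *CDK1*, had signals of 8.25, 8.84 and 3.49 over 2 probes, and log2 fold changes of -1.24 and 0.10. *CKS1B* and *CKS2*, small proteins that dock CDKs on phosphorylated substrates, were at -0.96 and -0.86 with the 3p strand and at -0.13 and -0.16 with the 5p strand.

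Other genes of the pathway were taken as lists of genes that are not members. Of 20 genes of the Rb, E2F and DREAM system, which hold or release cell-cycle promoters, 12 were lower and 2 (*E2F7* and *LIN37*) higher with *miR-139-3p*, where 27.9% and 26.5% of all genes were, with a median of -0.73 against -0.09 for all genes. *E2F8*, a repressing E2F, was the lowest at -2.78, with signals of 0.522 in mock, 0.473 with the 5p strand and 0.0760 with *miR-139-3p*, and *E2F7*, its close relative, was the highest at 0.52, with signals of 0.80, 0.629 and 1.15. The *E2F8* signal on the 3p array is dim, near the lowest well above background there, and no alternative processing was run for this list. With *miR-139-5p* 1 was lower and 1 higher, against 12.3% and 10.7% of all genes, with a median of -0.06. *RBL2*, an Rb relative, with signals of 1.70, 0.781 and 1.00, was the lowest there at -1.12. *LIN54*, the DNA-binding subunit of DREAM, with signals of 1.11, 1.66 and 0.573, was the highest at 0.58.

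Of 24 genes of the APC/C and SCF ubiquitin ligases and of mitotic kinases, which destroy cyclins or work beside *CDK1*, 23 had a value. With *miR-139-3p* 13 (56.5%) were lower and 1 was higher, against 27.9% and 26.5% of all genes, and the median was -0.76 against -0.09. *CDC20*, the mitotic activator of the APC/C, had signals of 8.15, 5.43 and 1.40 and was the lowest in both comparisons, at -2.54 with the 3p strand and -0.59 with the 5p strand. *FBXW7*, the SCF subunit that recognises cyclin E, had signals of 0.959, 1.51 and 3.09 and was the highest with *miR-139-3p*, at 1.69. For both genes the signal on the 5p array lay between those of mock and the 3p array. These groups have no order, so no trend is read from this. For the 5p strand *CDC20* was lower and *FBXW7* and *BTRC*, another SCF subunit, were higher, at 0.66 and 0.72, where 12.3% and 10.7% of all genes were lower and higher, and the median was 0.08 against 0.00. *BTRC* had signals of 0.801, 1.32 and 0.627, highest on the 5p array. *PLK1* had no matched probe.

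Of 25 partners of the transcriptional CDKs in elongation and Mediator, 24 had a value with *miR-139-3p*. Of these, 9 (37.5%) were lower and *GTF2H1*, *GTF2H3* and, as a bound, *MED12L* were higher, where 27.9% and 26.5% of all genes were, with a median of -0.24. *GTF2H3*, a subunit of TFIIH, was the highest measured on both arrays, at 0.88, with signals of 1.40, 1.28 and 2.57. For the 5p strand *ERCC3*, *HEXIM1* and *MEPCE* were lower and 0 of 23 higher, against 12.3% and 10.7% of all genes, with a median of -0.19. *MEPCE*, which caps the 7SK RNA that holds P-TEFb, was the lowest at -1.08, with signals of 1.57, 0.741 and 0.636, and *MNAT1*, with signals of 4.39, 5.49 and 5.35, the highest at 0.32. *GTF2H2* had no matched probe.

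**Figure D3:**
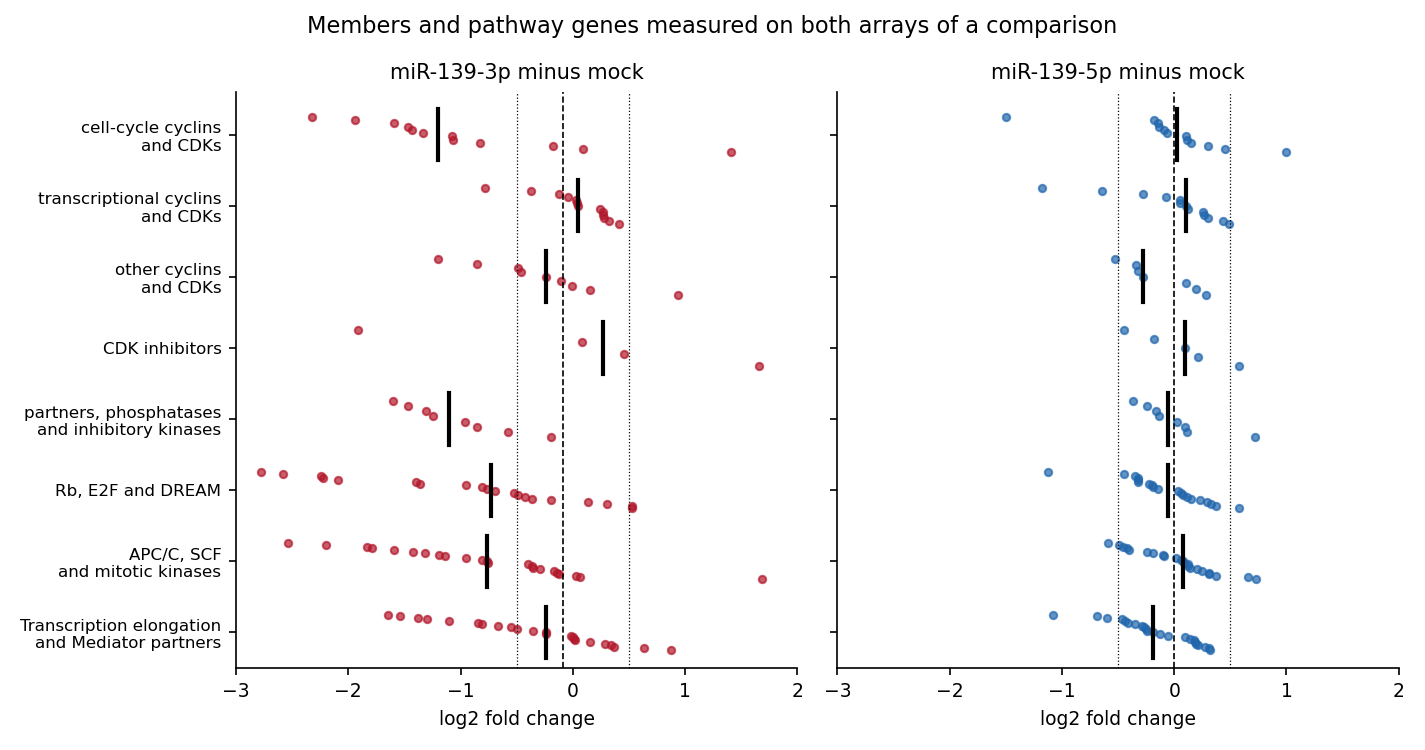
Log2 fold change against mock (x axis) of genes measured on both arrays of a comparison, for groups of members and for the pathway lists (y axis). Each point is a gene, black bars are list medians, the dashed line is the all-gene median (-0.09 and 0.00 for the 3p and 5p strands) and dotted lines mark 0.5 in both directions. With *miR-139-3p* the medians of the cell-cycle members (-1.21), of the partners and phosphatases (-1.10) and of the Rb and APC/C lists (-0.73 and -0.76) lie left of -0.5, and with *miR-139-5p* no list median passes the threshold.

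**Figure D4:**
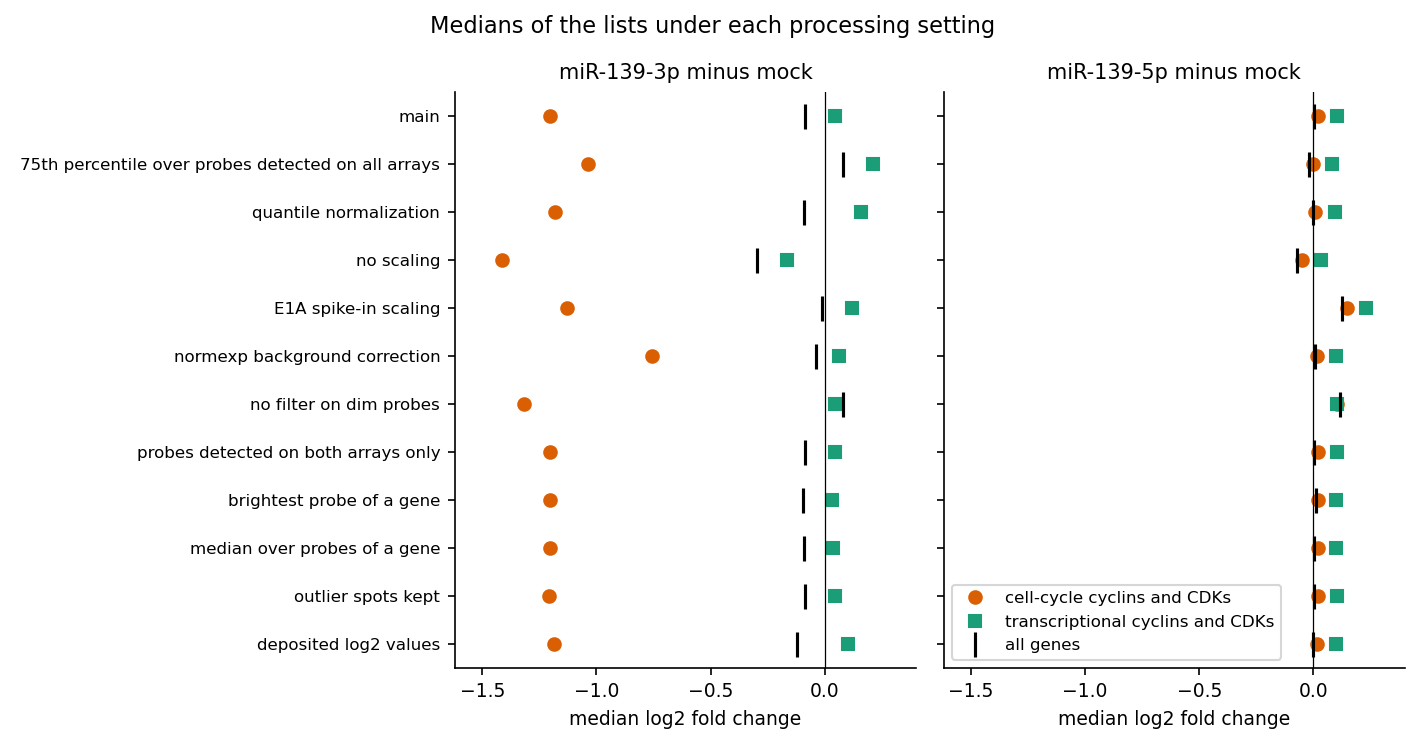
Median log2 fold change (x axis) of the cell-cycle (circles) and transcriptional (squares) cyclins and CDKs and of all genes (black bars) under the main processing and 11 alternatives (y axis). For *miR-139-3p* the cell-cycle median stays between -1.41 and -0.76 and the transcriptional median between -0.17 and 0.21, and for *miR-139-5p* the medians of both lists lie between -0.05 and 0.23.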

How the data were processed

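RNA from 3 groups of A549 cells was measured on 3 one-colour Agilent arrays. Spot intensity was deposited by the authors as read with Feature Extraction 12.1.1.1, background subtracted and not normalized between arrays. They also deposited log2 values by probe, which proved to be quantile normalized when set against the spots (column medians 2.21). These serve in 1 of the alternatives.

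The measure is log2 of the signal minus log2 of the 75th percentile of the array. Outlier spots (614 for mock, 935 for *miR-139-5p*, 1526 for *miR-139-3p*) were left out. A probe was well above background where 50% of its spots were. A gene took the mean over probes well above background on both arrays, otherwise a bound from the brightest probe, with the dim side set to the higher of its own signal and the lowest signal well above background. Of 58201 probes, 31104 had a RefSeq symbol (GRCh38.p14).

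Members and lists were chosen with earlier results of these data known. Values on all arrays are given for the cell-cycle cyclins and CDKs, other members past 1 on the log2 scale, and *CDK7*, *CDK9*, *CCNT1* and *CCNH*, and from the pathway lists largest falls and rises measured on both arrays. *CDKN1A*, *CCNG1* and *CCNG2* were named beforehand too. Other genes that make up small counts were named after the values were seen. In all, 12 alternatives were run and 0 added. The steps were tested on simulated data. Python 3.11.15, numpy 2.4.6, pandas 2.3.3, matplotlib 3.10.9, R 4.3.3 and limma 3.58.1 (normexp, offset 50) were used.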

Additional observations from a re-analysis of the deposited data

Results flagged for a closer look

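*CDC25A* stood out because its differences from mock point in opposite directions, each past 0.5: it was at -0.58 on the log2 scale with the 3p strand and at 0.72 with the 5p strand. Each value rests on 1 probe of 1 spot on 1 array per group, and whether the treated groups differ was not tested.

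In the cases of *CCNY* and *CDKN2A*, a spot that was well above background had been left out because the software marked its background region as an outlier. With that spot kept, *CCNY* was 0.35 above mock on the log2 scale for the 5p strand, and *CDKN2A* was 0.84 above it for the 3p strand at its brighter probe. Neither value enters a count at the main setting. With such spots kept, 4 members instead of 3 were higher with *miR-139-3p*, *CDKN2A* being the added one, against 26.7% of all genes instead of 26.5%. What the mark does to the values was not tested further.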

How the results depend on the processing

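The 12 alternatives were set before the values were computed and 0 were added later. They were run for the 51 genes and for the medians over all genes, and not for the pathway lists. No paired analysis was possible because each group has 1 array and the result comes from no test. No member past 0.5 changed sign under an alternative, and 17 of the 20 genes lower with *miR-139-3p*, 2 of 3 higher, 3 of 4 lower with *miR-139-5p* and 2 of 3 higher stayed past 0.5 in every alternative that keeps this threshold. Those that did not were *CCNE2*, *CCNF*, *CDC25A* and *CDK18* for the 3p strand and *CDK5* and *CDKN1B* for the 5p strand. Members lower with *miR-139-3p* went from 20 to 22 with quantile normalization and with the deposited values (*CDK12* and *CDK17* added). With no scaling they went to 23 (*CDK12*, *CCNY* and *CDK16* added), and *CDKN1C* became lower with the 5p strand. The share of all genes lower with *miR-139-3p* went from 27.9% to 29.7%, 30.5% and 37.8% in these settings. With no scaling, the share lower with the 5p strand went from 12.3% to 15.8%. Members higher with *miR-139-3p* went from 3 to 5 with the percentile over detected probes (*CCNL1* and *CDKN1B* added), to 5 with quantile normalization (*CCNH*, *CCNL1* and *CDKN1B* added, *CDK18* lost) and to 5 with the brightest probe (*CCNL2* and *CDKN1B* added). In the same order, the share of all genes that were higher went from 26.5% to 32.9%, 22.7% and 26.9%. Members higher with *miR-139-5p* went from 3 to 6 with spike-in scaling (*CDK1*, *CCNC* and *CCNL1* added), while the share of all genes went from 10.7% to 16.6%. The cell-cycle median for *miR-139-3p* went from -1.21 to -0.76 with normexp, which adds 50 to every signal. With a threshold of 1, members lower with *miR-139-5p* went from 4 to 2 and those higher from 3 to 0, against 2.37% and 1.92% of all genes. For the 3p strand 14 were lower and 2 higher at that threshold, against 11.8% and 12.3% of all genes. Probes of *CCNF* and *CDK18* have signals near the lowest well above background, which limits what their fold changes tell. The cause of these shifts was not tested.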

Other observations

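Besides the members, 38 other symbols on the array begin like those of the family, *CDKN1A*, *CCNG1* and *CCNG2* among them. Those 3 were named beforehand, and the others were looked at after the values of the members were known. With *miR-139-3p* 31 had a value, 6 were lower and 10 higher, 2 of the latter as bounds, where 27.9% and 26.5% of all genes were, and the median of those measured on both arrays was -0.02. *CDK5RAP2*, a protein of the centrosome, was the lowest at -1.30, followed by *CDK2AP1*, a CDK2-binding protein, at -1.18. The highest after *CDKN1A* were *CDKL3*, a CDK-like kinase, at 1.38, and *CCNT2-AS1*, an RNA antisense to *CCNT2*, at 1.34. *CCNT2* itself was within the threshold at 0.27.

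With *miR-139-5p* 29 of the 38 had a value, 4 were lower and 3 higher, where 12.3% and 10.7% of all genes were, and the median was -0.10. *CCNYL1*, a relative of *CCNY*, was at 1.01 with the 5p strand and -0.57 with the 3p strand, past 0.5 in opposite directions, and this difference was not tested. *CDK11A* and *CDK11B*, kinases that work with the L cyclins in splicing, were within the threshold in both comparisons, at 0.45 and 0.32 with the 3p strand and at -0.29 and 0.02 with the 5p strand.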
